A study of Saccharomyces cerevisiae with 8 samples.

Results

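The genes described here are the core of the DNA damage and replication checkpoint of budding yeast, Saccharomyces cerevisiae: MEC1, TEL1, LCD1, RAD53, DUN1, CHK1, RAD9, RAD17, RAD24 and MRC1. They were chosen by name, as the 10 genes that are the only gene symbol of at least 1 probe set, and they are 10 of the 5580 genes named on the arrays, with 15 of the 8330 probe sets used. MEC1 had 6 probe sets and each of the other genes had 1. RNA levels came from 8 one-colour arrays in 4 groups of 2: an sgs1 null strain with methyl methanesulfonate (MMS), the same strain untreated, wild type with MMS and wild type untreated, all taken in log phase. MMS methylates DNA bases and stalls replication forks, and SGS1 encodes a RecQ helicase. For the strain background, the way SGS1 was deleted and the dose and time of MMS, the labels give nothing. They also do not say whether both arrays of a group stand for separate cultures, and the p-values therefore reflect only the scatter of these samples, which may be technical.

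The checkpoint is a kinase cascade. Mec1, the relative of human ATR, is brought to single-stranded DNA by its partner Lcd1 (also called Ddc2), while Tel1, the relative of human ATM, is brought to DNA ends by the Mre11 complex. Rad24 replaces the large subunit of replication factor C to load a sliding clamp that contains Rad17, and the clamp stimulates Mec1. Rad9, at lesions, is an adaptor through which Mec1 activates the effector kinases Rad53 and Chk1. Mrc1, at replication forks, is an adaptor for Rad53. Rad53 activates Dun1, a kinase that raises nucleotide supply by removing the ribonucleotide reductase inhibitor Sml1 and relieving repression by Rfx1. Much of this signalling is by phosphorylation, which RNA levels do not show.

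In assembly R64, TEL1 (YBL088C) lies on chromosome II at 51019-59382, MEC1 (YBR136W) on chromosome II at 505668-512774 and CHK1 (YBR274W) on chromosome II at 749594-751177. DUN1 (YDL101C) lies on chromosome IV at 280307-281848, RAD9 (YDR217C) on chromosome IV at 899551-903480 and LCD1 (YDR499W) on chromosome IV at 1447830-1450073. MRC1 (YCL061C) lies on chromosome III at 18816-22106, RAD24 (YER173W) on chromosome V at 536300-538279, RAD17 (YOR368W) on chromosome XV at 1026843-1028048 and RAD53 (YPL153C) on chromosome XVI at 261727-264192. These spans are those of the annotated genes, all protein-coding. The positions of the probes within them were not analysed here.

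Values are deposited intensities after quantile normalization over the 8 arrays, with every value under the 10th percentile, 97.1, raised to that floor. The first array of a group is the unmarked one and the second the one with rep in its label. The 2 arrays of a group correlated at 0.952 to 0.966 over 7641 features, and the standard deviation of their log2 difference was 0.50 to 0.59. The deposited SGS1 intensity was 1.7 to 17.7 in the sgs1 null strain, against 339.1 to 777.3 in wild type, so each array lay on the side of its strain label. Changes are log2 values ± standard error, tested with limma and adjusted over all 7641 features, with a threshold of 0.05.

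**Figure D1:**
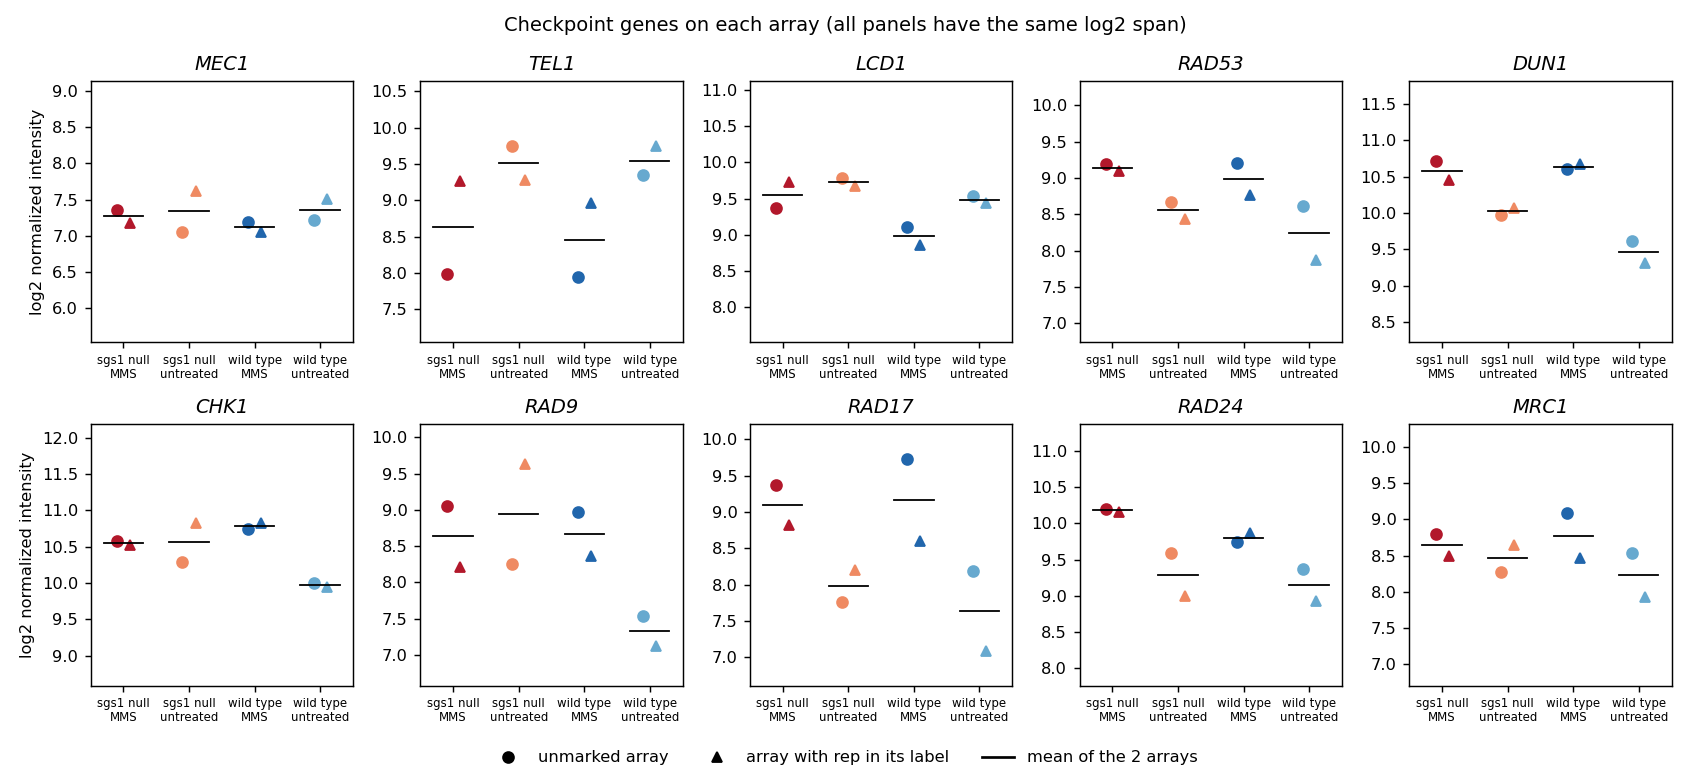
Log2 normalized intensity of each checkpoint gene on each of the 8 arrays, with circles for unmarked arrays, triangles for arrays with rep in their label and a line for the mean of the 2. DUN1, RAD53, RAD17 and RAD24 are higher on all MMS arrays than on all untreated arrays, and TEL1 is lower.

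Of the checkpoint genes, DUN1 rose with MMS in wild type and RAD24 joined it when the response was averaged over both strains. In either direction, 6.35% of all features passed in wild type and 15.6% in the average. RAD53 and RAD17 had positive values in both strains and TEL1 had negative ones, without passing the threshold. CHK1 and RAD9 had positive values in wild type and values near or below 0 in the sgs1 null strain. No member passed in any comparison of the strains.

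Among the effector kinases, DUN1, the kinase downstream of Rad53, had the smallest standard error of the members. Its normalized intensity was 1684 and 1398 in the sgs1 null strain with MMS, against 1007 and 1073 in the untreated sgs1 null strain. It was 1558 and 1629.5 in wild type with MMS, against 783 and 637 in untreated wild type. All 4 MMS arrays lay above all 4 untreated arrays, and the untreated sgs1 null arrays lay between the others. DUN1 rose by 1.17 ± 0.15 in wild type, a 2.26-fold change (95% interval 0.80 to 1.55, adjusted p = 0.0236). In the sgs1 null strain its value was 0.56 ± 0.15 (95% interval 0.18 to 0.94, adjusted p = 0.123), which did not pass. Averaged over strains it rose by 0.87 ± 0.10 (adjusted p = 0.0109). Between arrays of like mark, the MMS array was higher by 0.74 and 0.38 in the sgs1 null strain and by 0.99 and 1.35 in wild type. Of all features, 3.42% rose with MMS in wild type and 8.78% rose in the average.

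The wild-type call of DUN1 rested on every wild-type array, and a group left with 1 array was assumed to vary like the others. Leaving out an MMS-treated wild-type array gave an adjusted p of 0.113 (first) or 0.112 (second), and leaving out an untreated one 0.0723 (first) or 0.107 (second). Leaving out either sgs1 null array of the untreated group gave 0.0509, and fitting the wild-type arrays alone gave 0.0996. In those fits the change stayed between 1.03 and 1.32. Among the fits that leave out 1 array, the averaged rise was lost only for the wild-type MMS array marked rep (adjusted p = 0.0506).

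RAD53, the central effector kinase and relative of human CHK2, had a normalized intensity of 584 and 549 in the sgs1 null strain with MMS, against 408 and 346 in the untreated sgs1 null strain. In wild type it was 589 and 437 with MMS, against 391 and 234 untreated. The MMS arrays lay above the untreated arrays in both strains, although the lowest MMS array exceeded the highest untreated one only narrowly. The change was 0.59 ± 0.29 in the sgs1 null strain (adjusted p = 0.349) and 0.75 ± 0.29 in wild type (adjusted p = 0.203). The average, 0.67 ± 0.21, did not pass either (adjusted p = 0.0951).

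CHK1, an effector kinase that in yeast holds back anaphase through Pds1, was 1530.1 and 1473 in the sgs1 null strain with MMS, against 1249.6 and 1824 in the untreated sgs1 null strain. Wild type had 1711 and 1816 with MMS, against 1028 and 984 untreated. The untreated wild-type arrays were the lowest of the 8, while the 2 untreated sgs1 null arrays lay on either side of the MMS arrays of their strain. The change was -0.01 ± 0.19 in the sgs1 null strain (95% interval -0.49 to 0.48, adjusted p = 1). In wild-type cells it was 0.81 ± 0.19 (95% interval 0.33 to 1.29, adjusted p = 0.0745). The wild-type value passed on the deposited scale (0.97, adjusted p = 0.0386), with median centring (0.83, adjusted p = 0.0408) and on leaving out either sgs1 null array of the untreated group (adjusted p = 0.0346).

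**Figure D2:**
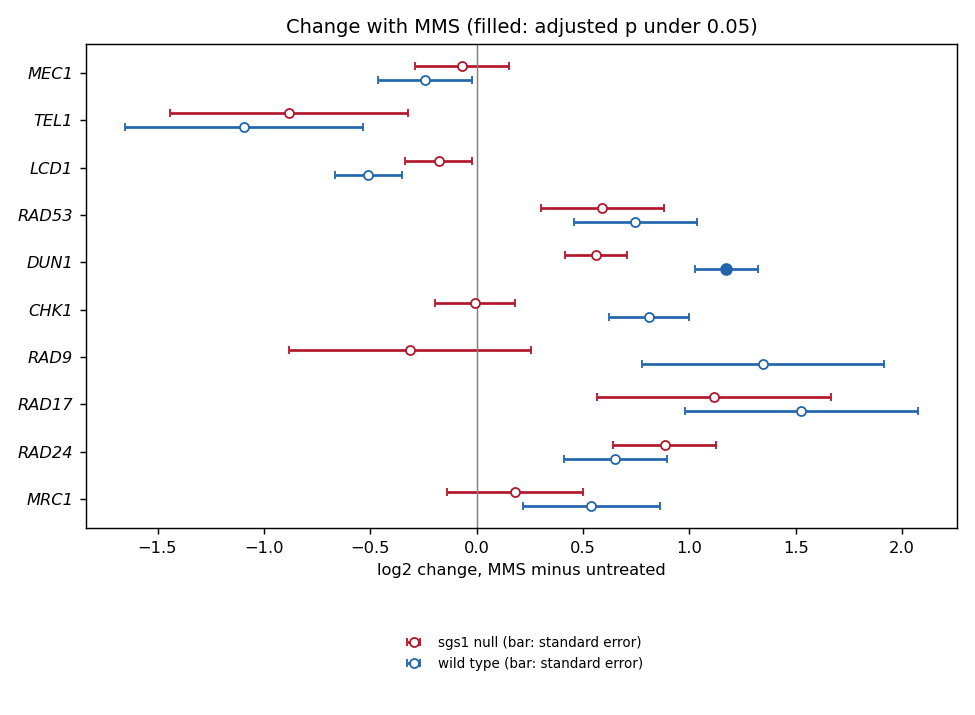
Log2 change with MMS for each checkpoint gene in the sgs1 null strain and in wild type, with the standard error of the limma fit as bars. DUN1 in wild type, at 1.17, is the only filled point, which marks an adjusted p under 0.05.

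Of the sensors, RAD24 and RAD17 belong to the clamp pathway. RAD24 had a normalized intensity of 1174 and 1144 in the sgs1 null strain with MMS, against 769 and 513 in the untreated sgs1 null strain. Its wild-type values were 860.1 and 929 with MMS, against 663 and 489 untreated. The MMS arrays were higher in both strains, and the untreated arrays spread more widely than the MMS arrays. The change was 0.88 ± 0.24 in the sgs1 null strain (adjusted p = 0.137) and 0.65 ± 0.24 in wild type (adjusted p = 0.19). Averaged over strains, RAD24 rose by 0.77 ± 0.17, a 1.70-fold change (95% interval 0.33 to 1.21, adjusted p = 0.0455).

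That call lay close to the threshold. Of the untreated sgs1 null arrays, leaving out the first kept it (adjusted p = 0.0409) and leaving out the second lost it (0.076). It was also lost on leaving out an MMS-treated sgs1 null array (0.121 for the first, 0.109 for the second), an MMS-treated wild-type array (0.112, 0.127) or an untreated wild-type array (0.0673, 0.118). In those fits the averaged change of RAD24 stayed between 0.62 and 0.91.

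RAD17 had the largest MMS values of the members and some of the widest spreads. It was 659.6 and 454 in the sgs1 null strain with MMS, against 217 and 294 in the untreated sgs1 null strain. Wild-type arrays gave 848 and 388 with MMS, against 291 and 136 untreated. The MMS arrays lay above the untreated arrays, and in wild type the first array exceeded the second under both conditions. The change was 1.12 ± 0.55 in the sgs1 null strain (adjusted p = 0.349) and 1.53 ± 0.55 in wild type (95% interval 0.12 to 2.94, adjusted p = 0.177). The average of 1.32 ± 0.39, a 2.50-fold change, did not pass (adjusted p = 0.0861).

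The other genes of the clamp and its loader had 0 calls by limma in any comparison, with 2 of 6 at an unadjusted p under 0.05 in the averaged MMS response, where 31.7% of all features were. Their median averaged change was 0.37, against 0.0032 for all features, and 5 of the 6 values were above 0 (50.3% of features). The clamp subunit genes DDC1 and MEC3 had values of 0.59 ± 0.21 (adjusted p = 0.126) and 0.15 ± 0.15 (adjusted p = 0.558). RFC4, a small subunit shared by the loaders, had 0.68 ± 0.17 (adjusted p = 0.0577).

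Of the adaptors, RAD9 was 533 and 296 in the sgs1 null strain with MMS, against 305 and 797 in the untreated sgs1 null strain. In wild type the values were 504 and 330.2 with MMS, against 185 and 139 untreated. The groups did not overlap in wild type, but the untreated sgs1 null arrays held both a low value and the highest value of all 8. The change was -0.31 ± 0.57 in the sgs1 null strain (95% interval -1.78 to 1.15, adjusted p = 0.857) and 1.35 ± 0.57 in wild type (95% interval -0.12 to 2.81, adjusted p = 0.232). Without the second untreated sgs1 null array the sgs1 null value was 0.38, and without the first it was -1.005.

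MRC1 was 444 and 359 in the sgs1 null strain with MMS, against 310.1 and 401 in the untreated sgs1 null strain. Wild type gave 543 and 354 with MMS, against 372 and 244 untreated. The groups overlapped in both strains. The change was 0.18 ± 0.32 in the sgs1 null strain (adjusted p = 0.852) and 0.54 ± 0.32 in wild type (adjusted p = 0.382).

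Of 8 genes for fork proteins and other adaptors, CTF18, which encodes the large subunit of another clamp loader, rose by 0.84 ± 0.15 in the averaged MMS response (adjusted p = 0.0267), and the other 7 did not pass. TOF1 and CSM3, whose proteins travel with Mrc1 at forks, had values of 0.51 ± 0.25 (adjusted p = 0.244) and 0.67 ± 0.17 (adjusted p = 0.0591). The list's median was 0.20, and 15.6% of all features passed in that comparison in either direction.

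The upstream kinase genes did not share the positive values. TEL1 was 253 and 618 in the sgs1 null strain with MMS, against 856 and 620.1 in the untreated sgs1 null strain. In wild type it was 246 and 498 with MMS, against 650.1 and 856 untreated. All 4 MMS arrays lay below all 4 untreated arrays, though in the sgs1 null strain the arrays marked rep were almost equal, and in each strain the unmarked MMS array was far below the one marked rep. The change was -0.88 ± 0.56 in the sgs1 null strain (adjusted p = 0.475) and -1.09 ± 0.56 in wild type (95% interval -2.53 to 0.34, adjusted p = 0.315). The average was -0.99 ± 0.39 (adjusted p = 0.167). Between unmarked arrays the MMS value was lower by 1.76 in the sgs1 null strain and 1.40 in wild type, and between arrays marked rep by 0.0060 and 0.78.

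LCD1 was 663 and 849 in the sgs1 null strain with MMS, against 881 and 819 in the untreated sgs1 null strain. Wild type had 549 and 463 with MMS, against 744 and 691 untreated. The wild-type groups did not overlap, and the sgs1 null groups did. The change was -0.18 ± 0.16 in the sgs1 null strain (adjusted p = 0.622) and -0.51 ± 0.16 in wild type (95% interval -0.92 to -0.10, adjusted p = 0.135).

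MEC1 values are averages over its probe sets. The gene was at 164 and 145 in the sgs1 null strain with MMS, against 133 and 196 in the untreated sgs1 null strain. In wild-type cells it was 146 and 133 with MMS, against 149 and 181 untreated. Both wild-type MMS arrays lay below both untreated ones by little, and the sgs1 null groups overlapped. The change was -0.07 ± 0.22 in the sgs1 null strain (95% interval -0.63 to 0.50, adjusted p = 0.943) and -0.24 ± 0.22 in wild type (95% interval -0.81 to 0.32, adjusted p = 0.565). Averaged in this way, with probe sets at the floor included, MEC1 was among the dimmest 25% of features.

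The 6 MEC1 probe sets did not all measure a level. Probe set 2474_s_at was below the floor on all 8 arrays, 2472_s_at on 5, 2477_s_at on 3 and 2476_s_at on 1, so the averaged value contains bounds. Probe sets 2470_at and 7227_at were above the floor on every array, at 161 to 395 and 176 to 332. Fitted alone, their MMS values were -0.33 ± 0.51 and -0.01 ± 0.30 in the sgs1 null strain and -0.46 ± 0.51 and -0.07 ± 0.30 in wild type. Probe set 2477_s_at had the opposite sign to most others in wild type, at 0.31 ± 0.30. Probe set 2476_s_at had 0.38 ± 0.42 in the sgs1 null strain and -0.68 ± 0.42 in wild type. None of the 6 passed, with adjusted p-values from 0.178 upwards in wild type. The other members were above the floor on all arrays.

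**Figure D3:**
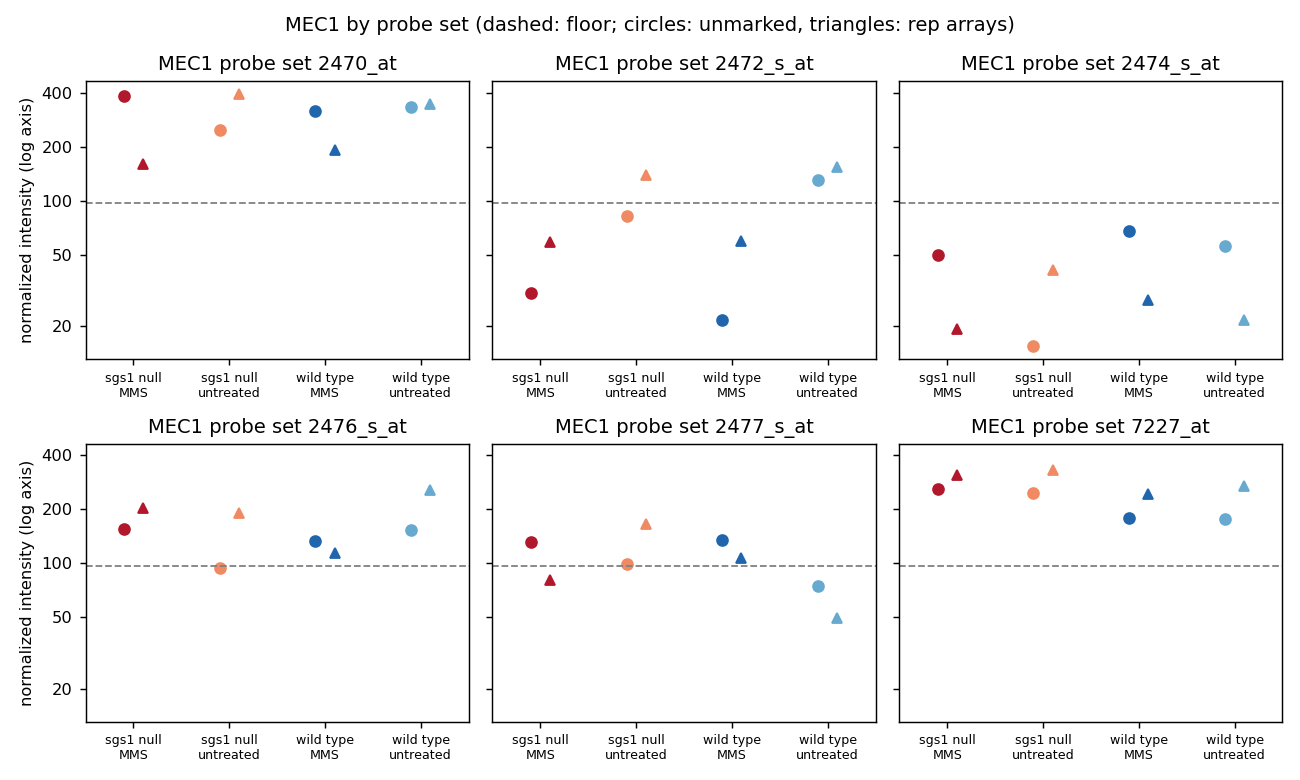
Normalized intensity (log axis) of the 6 MEC1 probe sets on each array, with the floor of 97.1 as a dashed line. Probe set 2474_s_at lies below the line on all 8 arrays, while 2470_at and 7227_at lie above it on all 8.

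Tel1's partners, the Mre11 complex with SAE2, had 0 of 4 genes past limma's threshold in any comparison. In the averaged response 0 of 4 had an unadjusted p under 0.05 (31.7% of all features). SAE2 was at the floor on all 8 arrays, so its change was fixed at 0 and it could not pass. The median averaged change, with SAE2 counted, was 0.22.

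The members were then set against all features. In wild type 7 of 10 values were above 0, against 49.3% of features, with a median of 0.70 against 0 for all features. There 1 member passed (6.35% of features) and 5 had an unadjusted p under 0.05 (24.6%). The groups did not overlap for 9 of the 10, higher for 6 and lower for 3, where 26.4% of all features were higher and 24.7% lower in this sense. In the sgs1 null strain 5 of 10 values were above 0 (48.5% of features), the median was 0.09, and the groups did not overlap for 4 higher and 1 lower (23.6% and 20.9% of features). There 0 members passed by limma, with 2 at an unadjusted p under 0.05 (20.2% of features), and 2.51% of all features passed. Over both strains RAD53, DUN1, RAD17 and RAD24 were higher on all 4 MMS arrays than on all 4 untreated ones, which held for 12.2% of features. TEL1 was lower in the same sense (9.96% of features). Because of that separation, the same 4 genes had to be higher with MMS in all 4 pairs of arrays of like mark and strain (21.7% of features). TEL1 likewise had to be lower in all 4 (20.3%), so the pairs add no further support. In the averaged response 7 of 10 values were above 0 (50.3% of features), the median was 0.46, and 6 had an unadjusted p under 0.05 (31.7%). There 2 of the 10 members passed by limma, both higher, where 15.6% of all features passed and 8.78% rose.

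**Figure D4:**
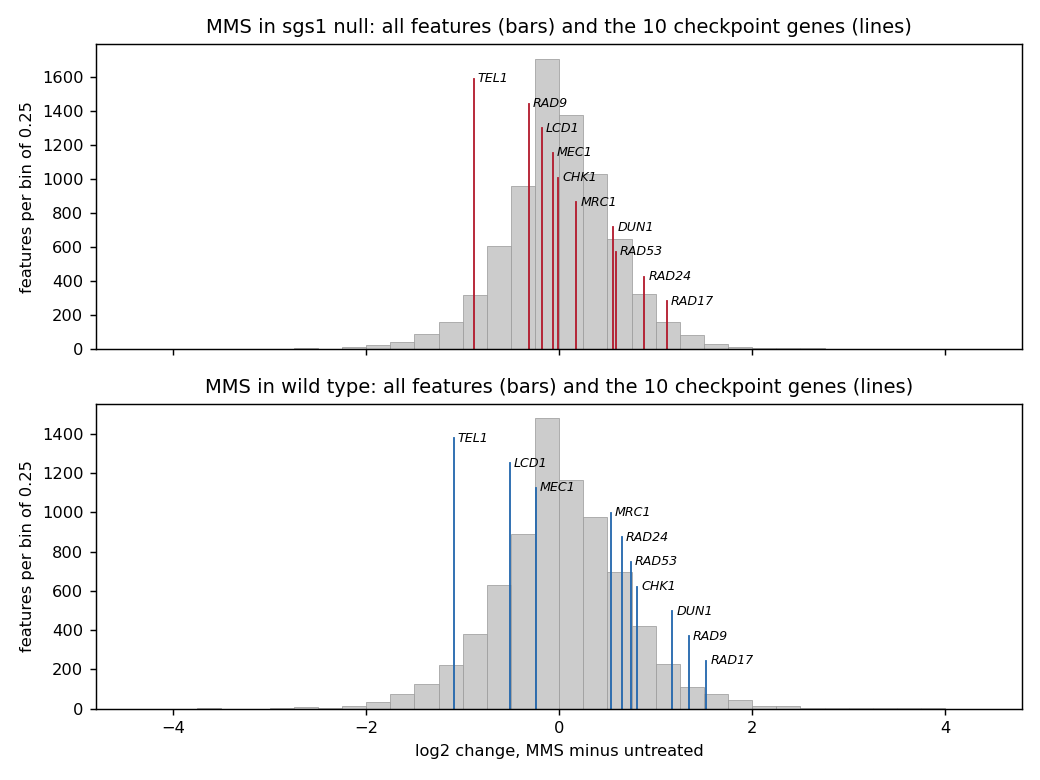
Number of features in bins of log2 change with MMS, in the sgs1 null strain (upper panel) and wild type (lower panel), with the checkpoint genes as labelled lines. The members run from -0.88 to 1.12 in the sgs1 null strain and from -1.09 to 1.53 in wild type, within the range of all features.

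The MMS responses of the strains were compared directly as an interaction, sgs1 null minus wild type. DUN1 differed by -0.61 ± 0.21 (95% interval -1.15 to -0.08), CHK1 by -0.82 ± 0.27 (-1.50 to -0.13) and RAD9 by -1.66 ± 0.80 (-3.73 to 0.41), each with an adjusted p of 1. No member passed, with 2 of 10 at an unadjusted p under 0.05 by limma. Of all features 0% passed and 4.75% had an unadjusted p under 0.05. The median over the members was -0.26, and 6 of 10 values were below 0 (46.9% of features). A different response of any member between the strains was thus not shown.

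Untreated, the strain difference was 0.56 ± 0.15 for DUN1 (95% interval 0.18 to 0.94, adjusted p = 0.35), 0.59 ± 0.19 for CHK1 (0.10 to 1.07, adjusted p = 0.426) and 1.62 ± 0.57 for RAD9 (0.15 to 3.08, adjusted p = 0.454). For LCD1 it was 0.24 ± 0.16 (adjusted p = 0.648). For these 4 genes both untreated sgs1 null arrays lay above both untreated wild-type arrays, as for 19.3% of all features. For TEL1 the difference was -0.03 ± 0.56 (adjusted p = 1). The RAD9 value ran from 0.93 to 2.31 when 1 array was left out. For the 10 members the median was 0.28 and 8 values were above 0 (45% of features). By limma 0 members passed, 3 had an unadjusted p under 0.05 (10.5% of features), and 0.0262% of features passed.

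With MMS the strain difference was -0.05 ± 0.15 for DUN1 (95% interval -0.43 to 0.32), -0.23 ± 0.19 for CHK1 and -0.04 ± 0.57 for RAD9, each with an adjusted p of 1. CHK1 was higher in the sgs1 null strain on both arrays when untreated and lower on both with MMS. The interaction above tests whether the MMS responses differ, not whether the sign turns. The 95% interval of the CHK1 difference with MMS was -0.72 to 0.25, so a turn was not shown. LCD1 was 0.57 ± 0.16 higher in the sgs1 null strain with MMS (95% interval 0.16 to 0.98, adjusted p = 0.614) and RAD24 0.37 ± 0.24 (adjusted p = 1), and for both the groups did not overlap (12.6% of features). CHK1 was the 1 member lower without overlap (12.9%). Of the 10 values 5 were above 0 (47.2% of features). By limma 0 members passed, 1 had an unadjusted p under 0.05 (6.18% of features), and 0.0131% of features passed.

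**Figure D5:**
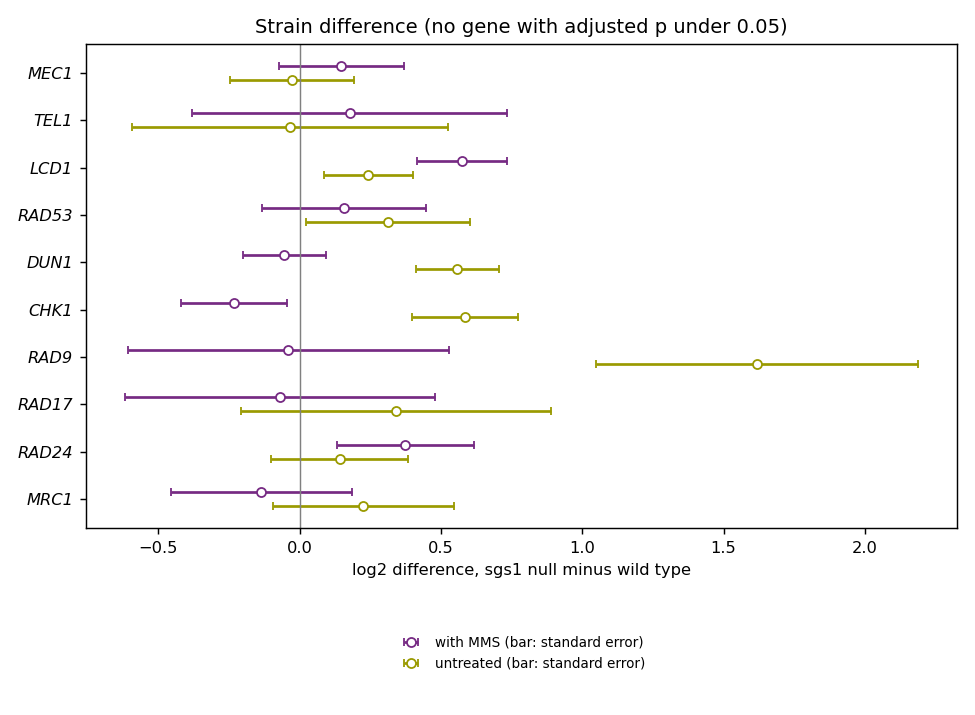
Log2 strain difference, sgs1 null minus wild type, for each checkpoint gene with MMS and untreated, with the standard error as bars. RAD9, CHK1, DUN1, RAD17 and MRC1 lie above 0 untreated and slightly below 0 with MMS, and no gene passed the threshold.

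Averaged over treatments, all 10 members had strain differences above 0, against 46.3% of features. Only LCD1, RAD53 and RAD24 were above 0 in both treatments. Untreated, RAD9, DUN1, CHK1, RAD17 and MRC1 had 1.62, 0.56, 0.59, 0.34 and 0.23. With MMS the same genes had -0.04, -0.05, -0.23, -0.07 and -0.13. MEC1 and TEL1 were below 0 untreated and above 0 with MMS. The averaged values were small, from 0.05 ± 0.23 for MRC1 to 0.79 ± 0.40 for RAD9. Their median was 0.21, against -0.0013 for all features. Like that of MRC1, the values of MEC1 (0.06 ± 0.16), TEL1 (0.07 ± 0.39) and RAD17 (0.14 ± 0.39) were smaller than their standard errors. MRC1 was below 0 in 4 of the 8 fits that left out 1 array, and at -0.11 without the wild-type MMS array marked rep. No member passed by limma, 1 had an unadjusted p under 0.05 (11.2% of features), and 0.157% of features passed. That gene was LCD1, at 0.41 ± 0.11 (adjusted p = 0.309). LCD1 and RAD24 were higher in the sgs1 null strain in all 4 pairs of arrays of like mark and treatment, as were 12.6% of features.

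Further down the pathway, 14 genes for substrates and targets of the kinases were examined. In the averaged MMS response 4 rose and 4 fell, where 15.6% of all features passed and 8.78% rose. RNR1, the large subunit of ribonucleotide reductase, rose by 1.40 ± 0.15 (adjusted p = 0.00923), and PDS1, the securin that Chk1 protects, by 1.28 ± 0.20 (adjusted p = 0.0191). SWI6, a G1 transcription factor subunit that Rad53 phosphorylates, fell by 0.65 ± 0.09 (adjusted p = 0.017), and NRM1, a repressor of G1 genes that Rad53 also targets, by 0.61 ± 0.13 (adjusted p = 0.0413). SML1, whose protein Dun1 marks for removal, had 0.06 ± 0.11 (adjusted p = 0.784), and RFX1 had 0.54 ± 0.41 (adjusted p = 0.447). NRM1 fell by 1.15 ± 0.18 in wild type (adjusted p = 0.0357) and had -0.06 ± 0.18 in the sgs1 null strain (adjusted p = 0.94), and the difference of 1.09 ± 0.26 did not pass (adjusted p = 0.891). In the sgs1 null strain alone 0 of the 14 passed by limma, with 4 at an unadjusted p under 0.05 (20.2% of features). In wild type 10 of the 14 had an unadjusted p under 0.05 (24.6% of features). In that strain RNR1 was the other gene of the list to pass, and it rose, where 6.35% of all features passed in either direction.

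Among genes known to be induced by DNA damage, some rose in both strains. Of 9, 3 rose in the sgs1 null strain and 4 in wild type, with medians of 0.90 and 1.41. Over all features 2.51% passed in the sgs1 null strain, and 6.35% passed and 3.42% rose in wild type. RAD54, a recombination gene, rose by 1.38 ± 0.18 in the sgs1 null strain (adjusted p = 0.0358) and by 1.85 ± 0.18 in wild type (adjusted p = 0.0147). DDI1 rose by 2.14 ± 0.20 in the sgs1 null strain (adjusted p = 0.0231) and by 2.05 ± 0.20 in wild type (adjusted p = 0.0154). DIN7, a nuclease gene named for damage induction, had -0.02 ± 0.12 in the sgs1 null strain (adjusted p = 0.991) and rose by 0.92 ± 0.12 in wild type (adjusted p = 0.0247). The difference between those responses was -0.94 ± 0.17 and did not pass (adjusted p = 0.871). HUG1, another marker, had -0.59 ± 0.23 in the sgs1 null strain (adjusted p = 0.251) and 0.52 ± 0.23 in wild type (adjusted p = 0.25). Its difference of -1.11 ± 0.33 did not pass (adjusted p = 0.997), and it is named after its values were seen. Over the 9 markers the median difference between the responses was -0.46. Their median strain difference, sgs1 null minus wild type, was 0.51 untreated, with 8 of 9 above 0 (45% of features). With MMS it was -0.15, with 2 of 9 above 0 (47.2% of features), and 0 passed by limma in either condition.

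Markers of the cell cycle moved with MMS as well. All 11 G2 and M phase marker genes had lower values with MMS in both strains, with a median of -0.51 in the sgs1 null strain, where 0 passed by limma and 2 had an unadjusted p under 0.05 (20.2% of features). In wild type the median was -1.23 and 6 fell (6.35% of features passed in either direction). The difference between the responses was above 0 for all 11, with a median of 0.75, and 0 passed by limma, with 6 at an unadjusted p under 0.05. Over all features 4.75% had such a p and 3799 of 7641 differences were above 0. The median strain difference of the 11 genes, sgs1 null minus wild type, was -0.43 untreated, with 1 of 11 above 0 (45% of features). With MMS it was 0.21, with 10 of 11 above 0 (47.2% of features), and 0 passed by limma in either condition. KIN3, a mitotic kinase gene, had -0.85 ± 0.13 in the sgs1 null strain (adjusted p = 0.0533) and fell by 1.37 ± 0.13 in wild type (adjusted p = 0.0147). Of 14 G1 and S phase markers, 2 rose in the sgs1 null strain (median 0.42), where 2.51% of all features passed in either direction. In wild type 2 of the 14 rose and 1 fell (median 0.03). Of 3 S phase histone genes, HTB2, which encodes histone H2B, fell by 1.84 ± 0.27 in the sgs1 null strain (adjusted p = 0.0467) and by 2.14 ± 0.27 in wild type (adjusted p = 0.0243), and the other 2 did not pass. Of 9 M/G1 markers, 0 passed in the sgs1 null strain by limma, with 0 at an unadjusted p under 0.05. PCL9, a cyclin gene, had -0.74 ± 0.31 in the sgs1 null strain (adjusted p = 0.282) and fell by 1.69 ± 0.31 in wild type (adjusted p = 0.0486), where the other 8 did not pass. In these bulk samples, a changed share of cells in a phase and a changed RNA level per cell cannot be told apart, and the part of the cell cycle in the values of DUN1, RAD24 and the other members was not tested.

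By similarity of profile, the genes closest to DUN1 were PMS1 (a mismatch repair gene), CTR86 and AIT1, with Pearson correlations of 0.986, 0.983 and 0.982 over the 8 arrays. Those closest to RAD24 were RAD28, RTC1 and EAF3, at 0.978, 0.974 and 0.974. They were the top 3 of 5270 genes above the floor on all arrays. The arrays share the MMS shift and the scaling, so these values describe the profiles only. PMS1, at the head of the first list, rose by 1.62 in the averaged MMS response (adjusted p = 0.00909). RAD28 rose by 0.63 (adjusted p = 0.033), CTR86, AIT1 and EAF3 also passed, and RTC1, with 0.41, did not (adjusted p = 0.0719). These genes were picked for likeness to genes called with MMS, so their MMS values are not separate support.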

How the data were processed

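RNA was measured on 8 one-colour arrays. The values deposited by the authors are intensities on a linear scale, with a single value for each probe set of an array. How they were scaled or background corrected, and with which software, is not stated in the labels. Array medians ran from 775 to 971.6 and means from 1906 to 1999.8. Of 8363 probe sets, 32 controls and 1 with a missing value were left out. Names came from the platform annotation (6269 probe sets with 1 symbol, 309 with several and 1752 with none), and all 10 members matched the RefSeq table of assembly R64 by gene ID. Intensities were quantile normalized, floored, put on the log2 scale and averaged per gene, with no pseudocount. The floor was the 10th percentile. Group means were fitted over all 8 arrays with limma 3.58.1 in R 4.3.3 (4 residual and 0.986 prior degrees of freedom), two-sided, with Benjamini-Hochberg adjustment over 7641 features. The steps were tested on simulated data, and scaling, floor, filter, variance model, arrays fitted, replicate block and left-out arrays were varied. Members, lists and rules were chosen with earlier results of these data known. The rule names all 10 members, listed genes that passed (up to 4 a list by smallest p) or belong to the clamp, fork or kinase-cofactor lists, and the 3 genes closest in profile to each member that passed. SML1, RFX1, HUG1 and the phosphatase genes were chosen after their values were seen. Some listed genes are not reported here.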

Additional observations from a re-analysis of the deposited data

How the results depend on the processing

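Of 732 alternatives to 47 single-gene results, 686 kept direction and side of the threshold, 9 passed where the reported value had not, 18 lost the threshold and 19 turned direction. The count of members that rose with MMS in wild type, reported as 1, was 2 with median centring and on the deposited scale, 0 with the wild-type arrays alone (which have fewer samples) and 0 to 1 when 1 array was left out. Averaged over strains, the count of 2 became 3 on the deposited scale, without the dimmest features and with the replicate block, 1 with the floor at the 20th percentile or an intensity trend and 0 to 2 when 1 array was left out. The other 5 comparisons had 0 members by limma under every alternative run. RAD24 missed the threshold with the floor at the 20th percentile (adjusted p = 0.0581), with a floor only at or below 0 (0.0505) and with the trend (0.059), while RAD17 passed with a floor only at or below 0 and without the dimmest features (0.0278). CHK1 passed in the average on the deposited scale (0.0402) and when the second untreated sgs1 null array was left out (0.0285). CHK1 in the sgs1 null strain was 0.045 with median centring and 0.10 on the deposited scale, and the untreated strain difference of TEL1 was 0.14 on the deposited scale. With 1 array left out, MMS changes in the sgs1 null strain ran from -0.35 to 0.21 for MEC1, -0.28 to 0.26 for CHK1, -1.005 to 0.38 for RAD9 and -0.0062 to 0.36 for MRC1. Strain differences ran from -0.27 to 0.20 for TEL1 untreated, -0.19 to 0.080 for DUN1 and -0.46 to 0.39 for RAD9 with MMS, and -0.11 to 0.20 for MRC1 averaged over treatments. The causes of these shifts were not tested. Over all features, 192 passed with MMS in the sgs1 null strain, 56 with a floor only at or below 0, 0 with its arrays alone and 1 to 13 with 1 array left out. In wild type 485 passed (261 higher), 546 with median centring (237 higher), 0 with its arrays alone and 0 to 275 with 1 array left out, and in the average 1189 passed, against 415 to 710. Strain differences passed for 2 features untreated (1 to 13 over the alternatives), 1 with MMS (1 to 4) and 12 averaged (1 to 30), and the interaction for 0 (0 to 3). With the rep mark as a replicate block, 496 features passed in the sgs1 null strain, 935 in wild type and 1847 in the average, and RAD53 passed in the average (adjusted p = 0.0355). Deviations of arrays of like mark correlated at 0.67 between the MMS groups, 0.54 between the wild-type groups and 0.20 between the untreated groups. Between sgs1 null with MMS and wild type untreated the correlation was 0.36. The untreated sgs1 null group was at -0.06 against sgs1 null with MMS and -0.08 against wild type with MMS. For lack of a correlation in those pairs the mark was not taken as a pairing. Any effect shared by arrays of like mark therefore stays in the scatter of the fits without the block. MEC1 has no value without the dimmest features. The number of arrays and, for MEC1, signals near the floor limit what can be resolved.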

Other observations

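The phosphatases that switch the checkpoint off had 0 of 5 genes past limma's threshold with MMS in either strain or in the average, where 2 had an unadjusted p under 0.05 (31.7% of all features) and 3 of 5 values were above 0 (50.3% of features). PPH3 and PSY2, the catalytic and a regulatory subunit of a phosphatase that acts on Rad53, had averaged MMS values of 0.74 ± 0.26 (adjusted p = 0.13) and 0.80 ± 0.19 (adjusted p = 0.0532). PTC2 had values of 0.46 ± 0.29 in the sgs1 null strain (adjusted p = 0.482) and -0.59 ± 0.29 in wild type (adjusted p = 0.299), and the interaction of 1.05 ± 0.41 did not pass (adjusted p = 1). These 3 genes were chosen after their values were seen.

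Other members of the kinase family of Mec1 and Tel1 had negative or small averaged values with MMS: -0.41 ± 0.13 for TOR1 (adjusted p = 0.0932), 0.06 ± 0.23 for TOR2 (adjusted p = 0.912) and -0.46 ± 0.15 for TRA1 (adjusted p = 0.114). Genes of the chaperone complex that stabilises the family had positive ones for TEL2 (0.58 ± 0.15, adjusted p = 0.0669) and TTI2 (0.67 ± 0.26, adjusted p = 0.161), and 0.05 ± 0.31 for TTI1 (adjusted p = 0.96). None of the 6 passed, and 3 had an unadjusted p under 0.05, against 31.7% of all features, of which 15.6% passed. Of 3 genes for kinases related to Rad53 and Dun1, MEK1, the meiotic one, was at the floor on all 8 arrays, and CMK2, a calmodulin-dependent kinase, rose by 0.62 ± 0.12 in the average (adjusted p = 0.0339). Of 4 chromatin genes that help bring Rad9 to damaged DNA, 0 passed in that average, and 1 had an unadjusted p under 0.05 (31.7% of all features).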
